A study of Mus musculus with 5 samples.

Results

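The genes followed here encode RNA-binding proteins of embryonic progenitor cells: the Musashi genes Msi1 and Msi2, the insulin-like growth factor 2 mRNA-binding protein genes Igf2bp1, Igf2bp2 and Igf2bp3, and Lin28a and Lin28b. They were chosen by gene symbol, and all 7 were found once each among 49875 gene IDs. RNA immunoprecipitation, in which RNA that comes down with an antibody is sequenced, gave an abundance for each gene in mouse neocortex at E13.5. All embryos were wild type, and every library came from the cytoplasmic supernatant of dissociated cortical cells, while the tissue field of the labels reads forebrain. The 3 groups were Input, the supernatant itself (2 libraries), the precipitate with an antibody against eIF4E (MBL, 2 libraries), the cap-binding protein of translation initiation, and the precipitate with rabbit control immunoglobulin G (Bioss, IgG, 1 library). The labels call the eIF4E and Input libraries biological replicates and do not say which embryos or pools each came from, so the tests see only how far the deposited libraries spread, which may be technical.

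Musashi proteins bind short UAG-containing sites in mRNAs and are best known for holding back translation, for example of Numb, by keeping the poly(A)-binding protein from the eIF4G scaffold that eIF4E carries. Igf2bp proteins bind mRNAs through RRM and KH domains and keep them stable or silent during transport, as with Actb in growing axons. Lin28 proteins bind the loop of let-7 precursors and recruit the uridyl transferases Tut4 and Tut7, after which Dis3l2 degrades the precursor. Mature let-7 in turn represses Lin28, Igf2bp and Hmga2 mRNAs, and Lin28b, Igf2bp1 and Igf2bp3 are known to decline as the brain develops.

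The let-7 sequences are shown because they are the shared partner of the Lin28 and Igf2bp genes. All 8 mature 5p arms in the RefSeq table of GRCm38.p6 have the same seed, bases 2 to 8, set in capitals.
let-7a-5p: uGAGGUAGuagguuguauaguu
let-7b-5p: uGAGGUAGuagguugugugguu
let-7c-5p: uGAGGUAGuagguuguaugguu
let-7d-5p: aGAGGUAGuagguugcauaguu
let-7e-5p: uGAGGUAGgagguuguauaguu
let-7f-5p: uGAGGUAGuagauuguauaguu
let-7g-5p: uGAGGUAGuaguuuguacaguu
let-7i-5p: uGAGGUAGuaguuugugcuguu
Lin28 is known to recognise GGAG in the precursor's loop. GGAG lies beyond the 5p arm in 9 of 11 let-7 hairpins, and 44.5% of all 1005 mouse hairpins in the table hold it anywhere. The hairpin of Mirlet7g (chromosome 9, 106178840 to 106178927, plus strand) has it and that of Mirlet7b (chromosome 15, 85707319 to 85707403, plus strand) does not, with capitals marking GGAG.
Mirlet7g: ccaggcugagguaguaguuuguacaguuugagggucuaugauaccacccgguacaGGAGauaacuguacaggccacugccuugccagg
Mirlet7b: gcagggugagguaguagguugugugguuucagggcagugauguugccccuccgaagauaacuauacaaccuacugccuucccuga
The table of abundances lists 11 let-7 genes, each at 0 in every library. Libraries primed on poly(A) tails measure such small RNAs poorly.

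The abundances are RSEM values per transcript length, either TPM or FPKM, with no counts, so the depth behind them is unknown. The IgG library stood apart, with 11825 genes above 0 against 17412 to 18745 in the other libraries. The neocortical genes Emx1, Emx2, Pax6 and Lhx2 were above 0 in every library. Summed erythroid markers (10 genes) lay at 17169 and 18701 in Input, 6448 and 4845 in eIF4E and 2541 in IgG. All 9 tested were lower in eIF4E than in Input, as were 30.6% of all genes tested. Globins dominated the sums, with Hba-a1 alone at 9728.56 and 10713.6 in Input. The globins were all lower in IgG than in Input, but Alas2 and Slc4a1 were higher. Alas2 measured 238.61 in IgG against 69.9 and 71.12 in Input, and Slc4a1 20.33 against 6.03 and 5.38. Endothelial and mural markers (10 genes) summed to 146 and 155 in Input, 69.3 and 68.2 in eIF4E and 20.6 in IgG. Of the IgG sum Rgs5 made up 17.49, while Cldn5, Esam, Flt1, Pdgfrb and Tek were at 0 there. Rgs5 was 2.62-fold higher in eIF4E than in Input. The 8 markers of meninges and mesenchyme summed to 134 and 116 in Input, 95.6 and 91.9 in eIF4E and 271 in IgG, of which Col3a1 made up 241.79 while Dcn, Foxc1, Lum, Pdgfra and Twist1 were at 0. The 9 microglial markers summed to 51.4 and 60.3 in Input, 27.2 and 19.9 in eIF4E and 21.97 in IgG. Of the IgG sum C1qb made up 21.85, and 7 were at 0 there. The 7 markers of interneurons and ganglionic eminence summed to 31.7 and 34.1 in Input, 39.1 and 36.8 in eIF4E and 49.2 in IgG. Radial glia and progenitors, the cells in which Msi1 is known to be expressed, had 10 markers. Of these, 5 were higher and 4 lower in eIF4E than in Input, near the 43.3% and 30.6% of all genes tested. The 10 summed to 1640 and 1667 in Input, 1416 and 1308 in eIF4E and 1170 in IgG. The part of these cells in the results below was not tested. A marker's level in a precipitate depends on which RNA came down, as well as on the cells and their RNA content. These cannot be told apart here.

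In Input, Msi1 and Igf2bp1 were the abundant mRNAs of the group and Lin28a was not seen. Msi1 measured 66.49 and 69.91, above 83.8% of the 12769 genes tested. Igf2bp1 followed at 48.8 and 55.99, above 80.3%. Igf2bp3 (19.72 and 19.7), Igf2bp2 (15.26 and 15.32) and Msi2 (11.93 and 11.15) lay lower, above 65.0%, 60.3% and 55.2% of genes. No neighbours in this order overlapped between their Input libraries. Lin28b measured 0.57 and 0.52, and Lin28a was listed at 0 in both. In the eIF4E precipitate the order was another one, with Igf2bp1 first, then Igf2bp3, Msi1, Igf2bp2 and Msi2, again with no overlap between neighbours. The lone IgG library had Msi2 (65.32) and Igf2bp2 (64.32) at the top and Igf2bp3 (24.04) last among these 5, with no spread to judge the order by.

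**Figure D1:**
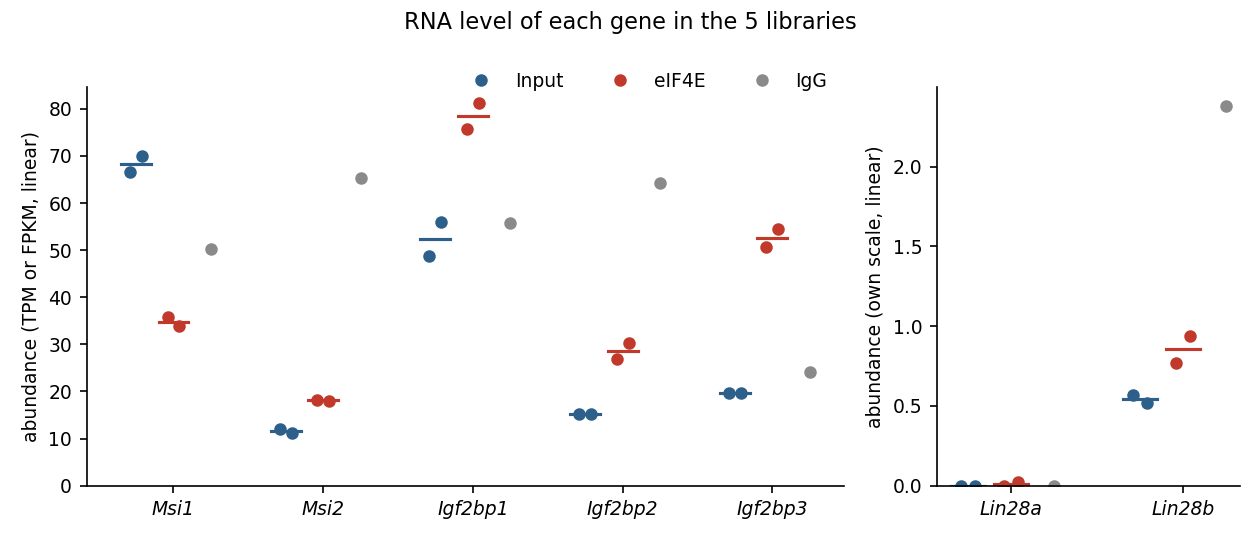
Abundance (TPM or FPKM, linear axis) of each gene in every library, with Input in blue, eIF4E in red and IgG in grey; points are libraries and bars are means of 2, and the right panel has its own scale. Msi1 falls from Input to eIF4E while Msi2 and the 3 Igf2bp genes rise, Msi2 and Igf2bp2 are highest in IgG, and Lin28b stays under 1 outside IgG.

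Setting eIF4E beside Input shows how the make-up of the precipitate differed from that of the cytoplasm it came from. A gene was tested where its value reached 1 in at least 2 libraries, which 5 of the 7 did. With limma's moderated test on log2(value + 1), adjusted by Benjamini-Hochberg over all genes, 4 of these were higher in eIF4E and 1 lower. Of all genes tested, 43.3% were called higher and 30.6% lower (73.9% in all), so a call by itself is common in these data. The 5 genes had a median log2 fold change of 0.61, against 0.16 over all genes. Fold changes here and below are of value + 1. Among all calls 58.6% were higher, a share that was 45.7% after median-of-ratios scaling, 45.5% after quantile normalization and 70.4% after rescaling to the same total. Those scalings put the median of all genes at −0.11, −0.11 and 0.38 on the log2 scale.

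Msi1 (chromosome 5, 115359059 to 115455698, GRCm38), the classic marker of neural stem and progenitor cells, was the gene that fell. It measured 35.79 and 33.91 in eIF4E, 66.49 and 69.91 in Input, and 50.28 in IgG. The eIF4E libraries were below both controls without overlap. The level fell to 0.518 of Input (log2 −0.95, SE 0.06, limma adjusted p = 2.43e-04), lower than for all but 8.55% of genes. It stood at 0.699 of IgG (log2 −0.52, SE 0.07, adjusted p = 0.00221). IgG against Input was lower too (log2 −0.43, adjusted p = 0.00388), but no more so than the median of all genes (log2 −0.43). Its direction turned when all libraries were given 1 total (log2 0.15, adjusted p = 0.112).

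Msi2 (chromosome 11, 88339382 to 88718306), the paralog that is expressed more widely, went the other way against Input. Its values were 18.23 and 18.04 in eIF4E, 11.93 and 11.15 in Input, and 65.32 in IgG. Both eIF4E libraries lay above Input and far below IgG. The rise over Input was 1.53-fold (log2 0.61, SE 0.07, adjusted p = 0.00132), and it came to log2 0.31 and 0.25 after median-of-ratios and quantile scaling (adjusted p = 0.0128 and 0.0307). Against IgG it stood at 0.289 (log2 −1.79, SE 0.08, adjusted p = 6.22e-05), and IgG exceeded Input 5.29-fold (adjusted p = 1.91e-05).

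A ratio of related genes within a library cancels most of any factor per library, though not all, because of the added 1. The ratio Msi2/Msi1, on value + 1, was 0.192 and 0.171 in Input, 0.523 and 0.545 in eIF4E and 1.29 in IgG. Msi2 thus made up 15.2% and 13.8% of the summed Musashi level in Input, 33.7% and 34.7% in eIF4E and 56.5% in IgG. The ratio was 2.95-fold higher in eIF4E than in Input (log2 difference 1.56, pooled SD 0.09), and without the added 1, where such a factor cancels, the log2 difference was 1.62. With 2 libraries against 2, the exact permutation test, two-sided, cannot go below p = 0.333, which is the p of all 5 family ratios compared (adjusted p = 0.333).

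All 3 Igf2bp mRNAs were higher in eIF4E than in Input, and they parted against IgG. Igf2bp1 (chromosome 11, 95957163 to 96005944), known as the zipcode-binding protein of Actb mRNA, had values of 75.76 and 81.16 in eIF4E, 48.8 and 55.99 in Input, and 55.86 in IgG. The eIF4E libraries were the highest, and the IgG value lay between both Input values. The rise was 1.49-fold over Input (log2 0.58, SE 0.09, adjusted p = 0.00341) and 1.40-fold over IgG (log2 0.48, SE 0.11, adjusted p = 0.0102). The call against Input was lost with median-of-ratios scaling (log2 0.26, adjusted p = 0.0556), and that against IgG when all libraries were given 1 total (log2 0.14, adjusted p = 0.273).

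Igf2bp2 (chromosome 16, 22059009 to 22163299), the family member that persists in adult tissues, measured 26.94 and 30.37 in eIF4E, 15.26 and 15.32 in Input, and 64.32 in IgG. As for Msi2, eIF4E lay between Input and IgG. It was 1.82-fold above Input (log2 0.86, SE 0.08, adjusted p = 6.98e-04) and at 0.453 of IgG (log2 −1.14, SE 0.10, adjusted p = 3.67e-04). IgG exceeded Input 4.01-fold (adjusted p = 4.5e-05).

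Igf2bp3 (chromosome 6, 49085218 to 49215469), the most strictly embryonic of the family, rose furthest of the 5. It measured 50.57 and 54.54 in eIF4E, 19.72 and 19.7 in Input, and 24.04 in IgG. Both eIF4E libraries were above every control library, by 2.58-fold over Input (log2 1.37, SE 0.07, adjusted p = 1.28e-04) and 2.14-fold over IgG (log2 1.10, SE 0.08, adjusted p = 2.24e-04). The fold over Input exceeded that of 84.5% of genes and the fold over IgG that of 62.7%. IgG was 1.21-fold above Input (adjusted p = 0.0262), but this did not pass without Input replicate 1 or 2 (adjusted p = 0.0908 and 0.0917). Median-of-ratios scaling gave log2 0.0061 with adjusted p = 0.953, and quantile normalization −0.033 with adjusted p = 0.74.

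**Figure D2:**
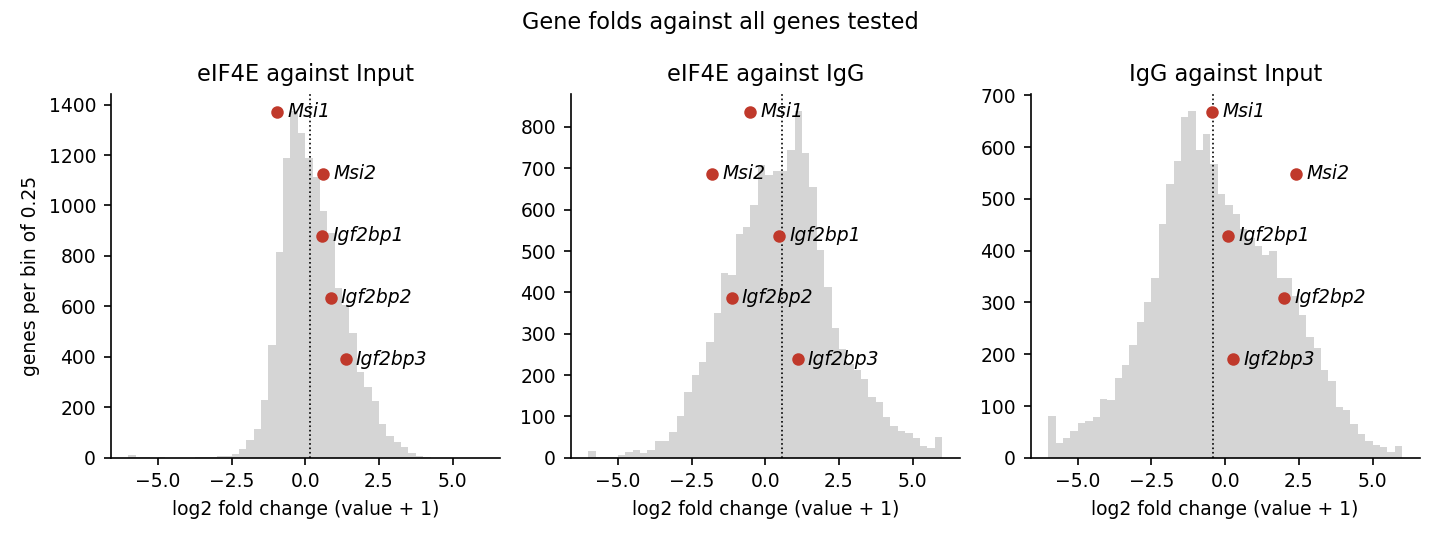
Log2 fold changes (value + 1) of the 5 genes tested, with bars for standard errors (0.06 to 0.11, within the points), over the histogram of all 12769 genes (bins of 0.25, values beyond 6 in the end bins); the dotted line is the median of all genes and heights of the points carry no value. Msi1 lies left of the median in both eIF4E panels and on it for IgG against Input, and Msi2 and Igf2bp2 lie right of it against Input and left of it against IgG.

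Within the Igf2bp family the shares shifted towards Igf2bp3 in eIF4E. Igf2bp3 made up 23.5% and 21.6% of the summed Igf2bp level in Input, 33.0% and 32.8% in eIF4E and 16.7% in IgG. Igf2bp1 held 58.2% and 61.5% in Input, 49.4% and 48.9% in eIF4E and 38.7% in IgG. Igf2bp2 stayed at 18.2% and 16.8% in Input and 17.6% and 18.3% in eIF4E, but was 44.6% in IgG. The log2 ratio Igf2bp1/Igf2bp3 was 1.27 and 1.46 in Input and 0.57 and 0.56 in eIF4E, a difference of −0.79 (pooled SD 0.10). That of Igf2bp2/Igf2bp3 differed by −0.51 (pooled SD 0.03) and that of Igf2bp1/Igf2bp2 by −0.29 (pooled SD 0.10). Without the added 1 these differences were −0.83, −0.51 and −0.32. In each of these ratios the eIF4E and Input libraries did not overlap, for which the exact permutation test still gives p = 0.333. The share of other gene pairs without overlap was not computed, and 73.9% of all single genes were called in this comparison.

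**Figure D3:**
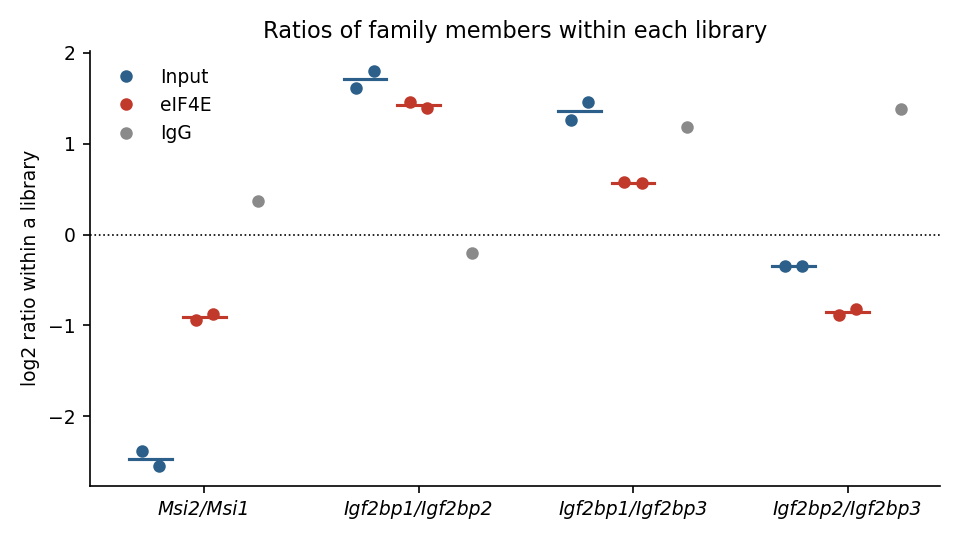
Log2 ratio of value + 1 between 2 genes of a family within each library (Input blue, eIF4E red, IgG grey; bars are means of 2 libraries). Msi2/Msi1 climbs from Input through eIF4E to IgG, whereas both ratios to Igf2bp3 are lower in eIF4E than in Input.

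Lin28a (chromosome 4, 134003330 to 134019196) and Lin28b (chromosome 10, 45376617 to 45486314) did not reach the minimum for the test. Lin28a was at 0 in 4 libraries and at 0.02 in an eIF4E library. Lin28b measured 0.77 and 0.94 in eIF4E, 0.57 and 0.52 in Input, and 2.38 in IgG. Its second highest value, 0.94, was just under the minimum of 1, and the lowest such value of a gene tested in this group was 18.23, for Msi2. Fitted with no minimum, Lin28b did not pass against Input (log2 0.26, SE 0.07, limma adjusted p = 0.0743) and was at 0.548 of IgG (log2 −0.87, adjusted p = 0.00606). At such levels, with unknown depth, a fold says little, and the log2 ratio Lin28b/Lin28a (0.65 and 0.60 in Input, 0.82 and 0.93 in eIF4E) depends on the added 1.

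The comparison with IgG asks whether a relative abundance exceeded that in the control precipitate. Its single library is assumed to vary like the other groups. In eIF4E against IgG, 2 of the 5 genes were higher (Igf2bp1 and Igf2bp3) and 3 lower (Msi1, Msi2 and Igf2bp2), with 53.1% of all genes called higher and 30.6% lower (83.8% in all). The median of the 5 was −0.52 on the log2 scale, against 0.55 over all genes. In IgG against Input, 3 were higher, 1 was lower and Igf2bp1 did not pass (log2 0.09, adjusted p = 0.434), with 37.8% of all genes higher and 50.3% lower (88.1% in all). Igf2bp1 and Igf2bp3, 2 of the 5, were called above both controls, as were 19.8% of all genes, and Igf2bp1 was not under every scaling. The fold of Igf2bp1 over IgG exceeded that of 48.5% of genes, below the median of all. The share of higher calls over all genes in eIF4E against IgG was 63.4%, and 48.8% after quantile normalization.

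**Figure D4:**
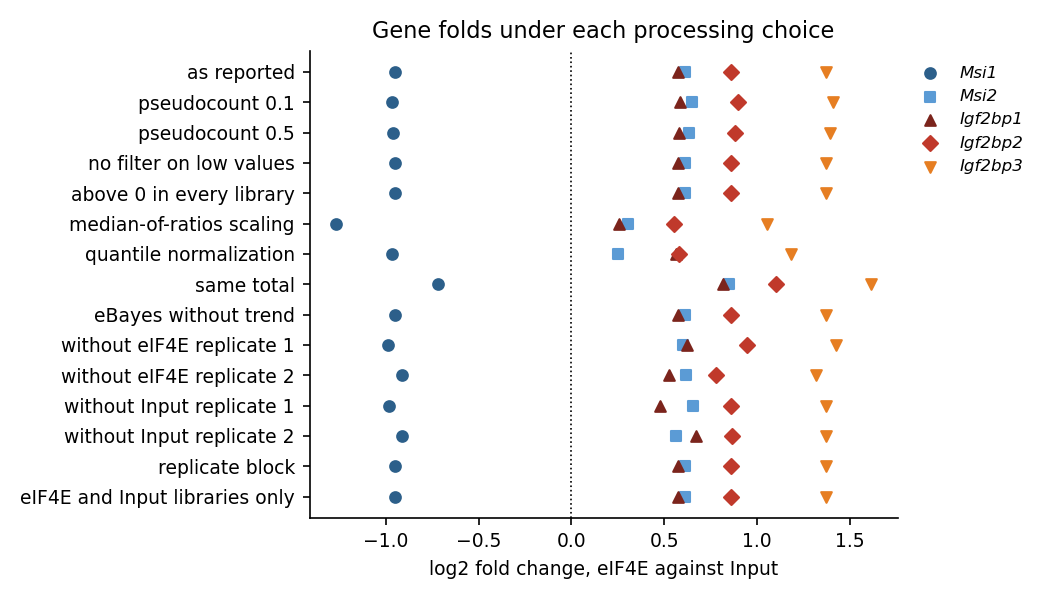
Log2 fold change in eIF4E against Input of the 5 genes (x axis) under each processing choice (rows); the dotted line marks no change. Msi1 stays left of the line and the other genes right of it in every row, nearest to it Msi2 under quantile normalization and Igf2bp1 under median-of-ratios scaling.

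The genomic spans of 6 of the 7 genes were long. Msi2 covers 378.9 kb, longer than 98.2% of genes tested, Igf2bp3 130.3 kb, Igf2bp2 104.3 kb, Msi1 96.64 kb and Igf2bp1 48.78 kb, longer than 72.7%. Lin28b covers 109.7 kb, and Lin28a, at 15.87 kb, is longer than only 40.1%. Across 12392 genes with a span, the log2 fold change rose with span in eIF4E against Input (Spearman's rho 0.40) and in IgG against Input (rho 0.39), and fell with it in eIF4E against IgG (rho −0.26). Genes are not independent replicates and these comparisons share libraries. With the genes cut into 10 equal groups by span, the longest group had a median log2 fold change of 0.76 in eIF4E against Input and 1.29 in IgG against Input, and the shortest −0.48 and −1.54. In eIF4E against IgG the longest group had a median of −0.50 and the shortest 1.076. The part of span in the folds above was not tested.

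Promoter windows, from 250 bases before to 50 after an annotated start, were in the RefSeq table for 5 of the 7 genes. Those of Igf2bp3 and Msi2 are shown because both mRNAs rose over Input and each window holds CACGTG, the E-box bound by the Myc family, more than once. This motif, which reads the same on either strand, was found at 2 positions in both, at 1 in Lin28b and at none in Igf2bp2 and Lin28a. Of 32851 mouse windows 7.15% held it at least once and 0.594% at 2 or more positions. It is in capitals in the windows of Igf2bp3 (chr6:49214905-49215204, minus strand) and Msi2 (chr11:88718228-88718527, minus strand, the most upstream of 3 overlapping windows).
Igf2bp3: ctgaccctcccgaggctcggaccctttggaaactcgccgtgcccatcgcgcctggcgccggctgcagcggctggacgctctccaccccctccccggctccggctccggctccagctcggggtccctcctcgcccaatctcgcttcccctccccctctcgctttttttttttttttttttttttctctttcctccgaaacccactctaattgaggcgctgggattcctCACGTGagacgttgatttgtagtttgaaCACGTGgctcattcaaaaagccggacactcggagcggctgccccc
Msi2: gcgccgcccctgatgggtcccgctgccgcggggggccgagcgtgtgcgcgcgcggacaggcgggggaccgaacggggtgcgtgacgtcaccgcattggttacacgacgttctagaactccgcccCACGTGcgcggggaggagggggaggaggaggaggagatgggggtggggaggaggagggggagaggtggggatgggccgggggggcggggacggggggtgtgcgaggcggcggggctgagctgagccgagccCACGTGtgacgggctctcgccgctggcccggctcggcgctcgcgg
A start with a C followed by at least 4 pyrimidines, as in terminal oligopyrimidine mRNAs, was annotated for Lin28a and for none of the other 4 genes, against 2.51% of all windows. A match is only a description of the letters.

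The partners and targets of these proteins were followed as lists. Of 17 genes that make or act on miRNAs, Lin28's let-7 pathway included, 16 were tested, 12 were higher in eIF4E than in Input and 3 lower (43.3% and 30.6% of all genes), with a median log2 fold change of 1.26 against 0.16 over all genes. The risers were led by Tnrc6a and Tnrc6b, scaffolds of the silencing complex. Tnrc6a measured 30.51 and 26.56 in eIF4E, 1.81 and 3.07 in Input and 19.8 in IgG (8.71-fold over Input, limma adjusted p = 2.5e-04). Tnrc6b measured 31.76 and 30.12, 5.32 and 4.66, and 78.75 (5.34-fold, adjusted p = 7.66e-05). The falls were Xpo5, which exports precursors from the nucleus, at 0.322 of Input (8.83 and 8.56 against 29.56 and 28.75), Dis3l2 at 0.619 (14.57 and 16.1 against 25.34 and 25.37) and Tarbp2. In IgG, Xpo5 measured 6.47, below eIF4E, and Dis3l2 15.72. Against IgG the list had 3 higher and 8 lower (53.1% and 30.6% of all genes), 2 and 9 after quantile normalization and 1 and 10 at the same total.

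Of 22 let-7 target mRNAs 19 were tested, 13 were higher than Input and 3 lower, against 43.3% and 30.6% of all genes (median log2 0.98 and 0.16). Tgfbr1, a TGF-beta receptor, stood at 6.3 and 6.94 in eIF4E, 0.47 and 0.59 in Input and 6.67 in IgG. It was 4.98-fold above Input (limma adjusted p = 1.28e-04) and at 0.993 of IgG. The 2 lowest were Cdc34, a ubiquitin-conjugating enzyme, at 0.543 of Input and Insr, the insulin receptor, at 0.643. Insr measured 94.54 in IgG against 13.63 and 13.42 in eIF4E, and Cdc34 12.43 in IgG against 55.23 and 40.86 in eIF4E. Against IgG 8 of the list were higher and 6 lower (53.1% and 30.6% of all genes), 6 and 9 after quantile normalization and 6 and 10 at the same total.

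Of 10 RNAs known to be bound by Igf2bp proteins 9 were tested, 5 higher and 4 lower than Input, and 2 and 4 after median-of-ratios scaling. Among the lower ones was H19, a noncoding RNA and not an mRNA. With 43.3% and 30.6% of all genes called in these directions, neither count is far from the background. Against the single IgG library the list's median log2 fold change was −1.38, where that of all genes was 0.55. After quantile normalization these medians were −1.51 and −0.040. Igf2, the growth factor that names the family, fell furthest, from 34.76 and 42.06 in Input to 8.54 and 8.48 in eIF4E, with 91.64 in IgG (0.242 of Input, limma adjusted p = 1.48e-04). Actb, the cytoplasmic actin, fell from 5259.46 and 5210.45 to 2263.61 and 2349.53 (0.441, adjusted p = 6.64e-05). In IgG it measured 1986.07, below eIF4E, an order that turned with quantile normalization and at the same total. Ctnnb1, beta-catenin, rose from 156.43 and 160.76 to 457.31 and 471.21 (2.92-fold, adjusted p = 6.06e-05), with 343.68 in IgG. Of the 7 protein partners of Igf2bp1, 5 were higher and 2 lower than Input, beside the same background. Their median log2 fold change against IgG was 0.30, and −0.22 after quantile normalization. Fmr1, the fragile X protein, was 4.27-fold and Syncrip 3.41-fold above Input. Fmr1 measured 5.95 and 5.29 in eIF4E and 4.37 in IgG, which was itself 3.47-fold above Input. Syncrip measured 117.16 and 112.61 in eIF4E and 64.24 in IgG. Ybx1, a cold-shock protein, measured 74.92 and 75.79 in eIF4E and 181.9 in IgG. Elavl1 measured 208.62 and 217.34 in eIF4E and 78.58 in IgG. Ybx1 stood at 0.413 of Input, and Elavl1 at 0.887. The direction of Elavl1 turned with 2 of the scalings, and it did not pass when eIF4E replicate 1 (adjusted p = 0.0573) or Input replicate 1 or 2 (adjusted p = 0.139 and 0.0982) was left out.

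Of 9 Musashi targets 7 were tested, with a median log2 fold change against IgG of 0.41, and −0.68 after quantile normalization. Compared with Input, 4 were higher and 2 lower, near the 43.3% and 30.6% of all genes. The counts were 1 and 3 after median-of-ratios scaling and 2 and 3 after quantile normalization. They were 3 and 0 without eIF4E replicate 2, 3 and 1 without Input replicate 1, and 2 and 0 without Input replicate 2. Numb, the Notch inhibitor, measured 14.18 and 17.02 in eIF4E and 11.88 and 9.71 in Input (1.41-fold, limma adjusted p = 0.0276) and did not pass against IgG (11.47, adjusted p = 0.0778). It did not pass over Input with median-of-ratios scaling (log2 0.19, adjusted p = 0.264), quantile normalization (log2 0.10, adjusted p = 0.56) or without Input or eIF4E replicate 2 (adjusted p = 0.13 and 0.125). Dcx, the microtubule protein of migrating neurons, rose from 6.48 and 5.86 to 29.55 and 30.92 (4.36-fold, adjusted p = 7.8e-05), with 106.5 in IgG. Jag1, a Notch ligand, was 1.45-fold higher (log2 0.53), which did not pass with median-of-ratios scaling (log2 0.36, adjusted p = 0.0527) or quantile normalization (log2 0.087, adjusted p = 0.502). Cdkn1a, the cell-cycle inhibitor p21, stood at 0.497 of Input (adjusted p = 0.0274) and Robo3, an axon guidance receptor, at 0.696. The calls of Cdkn1a and Robo3 were lost without eIF4E replicate 2 (adjusted p = 0.124 and 0.0884) and without Input replicate 2 (0.132 and 0.117). Those of Robo3 and Jag1 were also lost without Input replicate 1 (0.0625 and 0.0753), and that of Jag1 without Input replicate 2 (0.0742). The 3 protein partners were all higher than Input (43.3% of all genes), Pabpc1 5.09-fold, the poly(A) polymerase Tent2 5.01-fold and Eif4g1 3.95-fold. IgG was above Input for each of them too, 2.88-fold for Pabpc1, 6.20-fold for Tent2 and 1.48-fold for Eif4g1. Against IgG, Pabpc1 stood at 1.76 and Eif4g1 at 2.66. Tent2 was lower than IgG (0.808), a call lost without eIF4E replicate 1.

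Of 13 genes of IGF signalling 12 were tested, 6 higher and 4 lower than Input (43.3% and 30.6% of all genes). These counts were 5 and 5 after median-of-ratios and after quantile scaling. The list's median log2 fold change against IgG was 0.82, and −0.17 after quantile normalization. The kinase subunit gene Pik3ca was 4.68-fold above Input. It measured 6.11 and 6.45 in eIF4E and 4.25 in IgG, which was itself 3.38-fold above Input. Igfbp2 and Igfbp4, secreted proteins that bind IGFs, stood at 0.320 and 0.490 of Input. Igfbp2 measured 199 and 179.39 in eIF4E against 576.17 and 608.43 in Input and 65.95 in IgG. Igfbp4 measured 87.12 and 86.71 in eIF4E against 176.72 and 180.15 in Input and 44.56 in IgG.

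**Figure D5:**
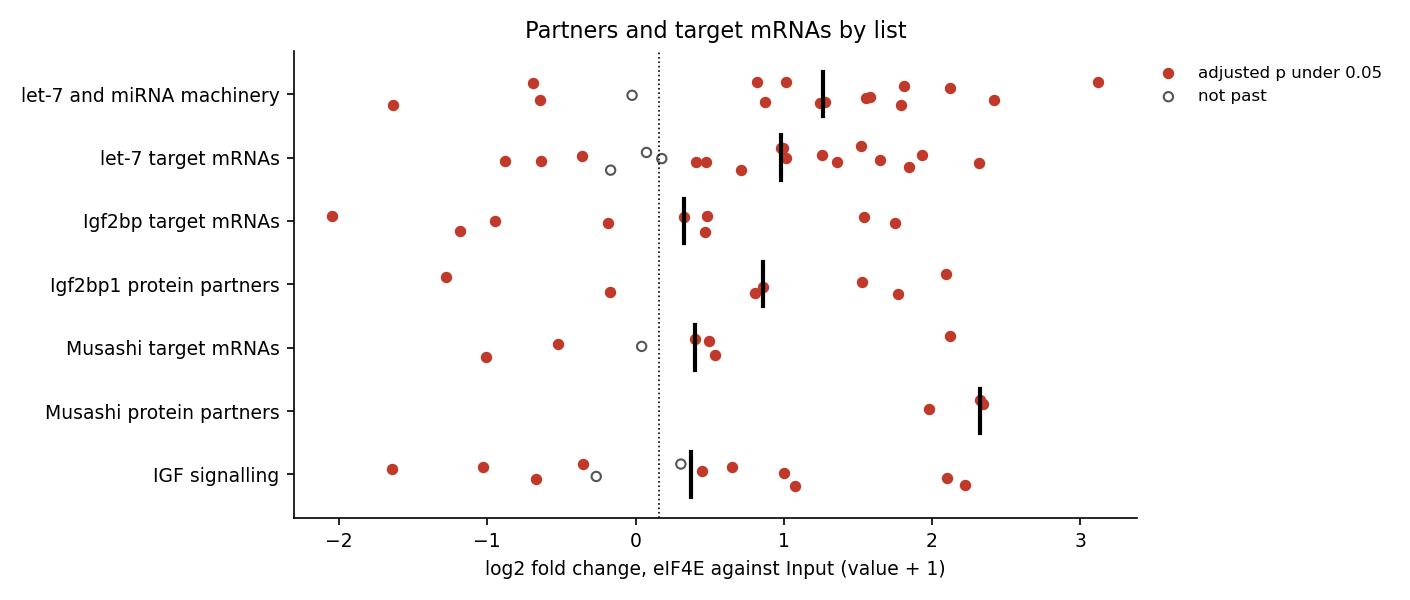
Log2 fold change in eIF4E against Input (value + 1) of each tested gene by list, filled where the limma adjusted p was under 0.05; black bars are list medians and the dotted line is the median of all genes, 0.16. The miRNA machinery, let-7 targets, Igf2bp1 partners and Musashi partners lie mostly to the right, and the other lists spread to both sides.

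The genes most like each member were those at the smallest Euclidean distance over the 5 libraries, after centring log2(value + 1) on each gene's mean. For Msi1 these were Eif4ebp1 (0.0953), Eif2b2 (0.108) and Vps18 (0.11). Eif4ebp1, which encodes a repressor that binds eIF4E, measured 40.5 and 35.61 in eIF4E, 73.42 and 79.22 in Input and 53.9 in IgG. For Msi2 they were Rhbdl3 (0.062), Zfp57 (0.0896) and Dip2b (0.0969), and for Igf2bp2 Parp8 (0.131), Exoc2 (0.136) and Klhl5 (0.14). Those of Igf2bp1 were Vegfc (0.0542), Tgif2-ps2 (0.146) and Pak1ip1 (0.15), and those of Igf2bp3 Oxsr1 (0.0813), Chmp5 (0.0912) and Cyb5r4 (0.0951). Lin28b, on its small scale, lay nearest to Rfk (0.0582), Ccdc43 (0.065) and Slc15a2 (0.0956). Parp8 (0.31 and 0.3 in Input, 3.8 in IgG), Vegfc (1.56 to 3.29) and Oxsr1 (1.89 and 1.87 in Input) were low too. At such levels the distance depends on the added 1. Among the members themselves Msi2 and Igf2bp2 were the closest pair (0.553), and Msi1 and Msi2 the most distant (2.41).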

How the data were processed

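RNA was measured from Smart-seq2 libraries, per the labels' protocols, a method that primes on poly(A) tails and keeps no strand. Tools named in the submitters' processing notes are RSEM 1.3.3 and STAR 2.7.9a, with build mm10. The deposited table gives 1 linear abundance per gene and library, TPM or FPKM, which differ by a factor per library; the annotation is not stated. Column totals were 560076 to 848550. RSEM divides reads shared by similar genes, so paralogs are uncertain.

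Of 50161 rows, 286 repeats of a gene ID were dropped. Genes at 1 or more in at least 2 libraries (12769) were fitted as log2(value + 1) in 3 groups with limma 3.58.1 in R 4.3.3 (eBayes with trend, two-sided, threshold 0.05; 2 residual and 2.571 prior degrees of freedom). The fit was also run on simulated libraries with few genes changed and IgG drawn as Input. These data differ in both, so that run does not vouch for the calls here. Ratios used SciPy 1.17.1. Members and lists were chosen with earlier results of these data known. In each list the 2 highest and 2 lowest folds over Input past the threshold, without overlap of libraries, are named, apart from some that are not reported here; Tarbp2, Numb and Eif4g1 were added after their values were seen. Alternatives changed pseudocount, filter, scaling, variance prior, replicates and pairing. Coordinates and sequences are RefSeq's, GRCm38.p6, matched by symbol. Columns mapped to samples by description.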

Additional observations from a re-analysis of the deposited data

How the results depend on the processing

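Of 190 recomputed log2 fold changes of the 5 genes tested, 182 kept their side of the threshold and, where called, their direction. Some alternatives (filter, variance prior, pairing, a library outside the comparison) could not change a gene's fold, only its p-value. Igf2bp1 in eIF4E against Input and against IgG, Igf2bp3 in IgG against Input, and Msi1 there, are given above; Igf2bp1 in IgG against Input passed with libraries at the same total (log2 0.68, adjusted p = 0.00228). With that scaling 1 of the 5 genes was higher in eIF4E against IgG, and 0 lower in IgG against Input. Among genes above 0 in every library, 4389 were higher in eIF4E against IgG (6785 as reported) and 4072 lower in IgG against Input (6428), with fewer genes tested. The Lin28b/Lin28a difference was 0.25 on the log2 scale as reported, 0.43 with a pseudocount of 0.1 and 0.34 with 0.5.

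Directions turned under quantile normalization for Elavl1 in eIF4E against Input (log2 0.037), for Actb (−0.43), Ctnnb1 (−0.25), Jag1 (−0.68) and Vegfc (−0.70) in eIF4E against IgG, and for Igf2bp3 (−0.033), Cyb5r4 (−0.070), Eif2b2 (0.36), Jag1 (0.77) and Ybx1 (0.72) in IgG against Input. They turned at the same total for Elavl1 (0.067), for Actb against IgG (−0.13), and in IgG against Input for Msi1 (0.15), Eif2b2 (0.056), Eif4ebp1 (0.089), Vps18 (0.12) and Ybx1 (0.57), and with median-of-ratios scaling for Ccdc43 in eIF4E against Input (−0.059) and Chmp5 in IgG against Input (−0.040). The cause was not tested.

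Leaving out 1 eIF4E or Input replicate left 4 of the genes higher and 1 lower in eIF4E against Input, and 4817 to 5084 genes higher and 2935 to 3630 lower over all genes. The Msi2/Msi1 difference then ran from 1.48 to 1.64, Igf2bp1/Igf2bp2 from −0.38 to −0.19, Igf2bp1/Igf2bp3 from −0.89 to −0.70, Igf2bp2/Igf2bp3 from −0.54 to −0.48 and Lin28b/Lin28a from 0.20 to 0.30. The IgG library could not be left out. Same-numbered eIF4E and Input libraries did not deviate together (correlation 0.0236 across 12769 genes). With the replicate number as a block 4 of the genes were higher and 1 lower, with 5401 and 3749 over all genes. Among the genes named, the block took the call of Elavl1 in eIF4E against Input (adjusted p = 0.0709), as did a variance prior without trend (0.0799).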
